A study of Mus musculus with 2 samples.

Results

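The genes described here are the immediate early transcription factors and the dual specificity phosphatases, with the IER, BTG and small MAF genes usually studied beside them. They were taken by symbol: the FOS, JUN, EGR, KLF, IER, DUSP, BTG, NR4A and MAF family members, plus Atf3 and Myc. The rule found 68 genes among 23924 gene symbols in the table, and 20 of the 68 were listed at 0.1 FPKM or more in at least 1 library. FPKM is a fragment count corrected for how long the transcript is and how deeply the library was sequenced. The study sequenced RNA recovered by immunoprecipitation from nuclear extracts of RAW 264.7 cells, a mouse macrophage line. The NCL library came from an antibody against nucleolin, an abundant RNA-binding protein of the nucleolus, and the IgG library from rabbit IgG as its control. Cells of both libraries were depleted of mRrp6, a nuclear exosome ribonuclease, and had been exposed to LPS at 80 ng/ml for 12 h. There was thus no undepleted and no unstimulated library, and how the depletion was made is not stated in the labels. The NCL library is the one titled as nucleoplasmic RNA, matched through the study's design text and the column name. With 1 library per group, no difference below has a replicate check and no test between groups was made.

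Immediate early genes are switched on within minutes of a stimulus by factors already present in the cell, without new protein synthesis. FOS and JUN proteins pair to form AP-1. EGR, KLF and NR4A proteins are DNA-binding factors, and some genes of these families respond in the same early wave. The rule took whole families by symbol, so membership does not by itself mark a gene as early. Several DUSP enzymes remove phosphate from MAP kinases and so act back on the signal that induced them. In macrophages LPS starts this programme through the receptor TLR4, and many of its messenger RNAs are short-lived.

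Short elements near their starts take part in the early control of many such genes. Shown are 5 stretches, each picked because it holds an element that was searched for. The genes are Dusp5, Maff and Btg2 (listed in the NCL library only), Ier3 (more NCL reads) and Btg1 (more IgG reads). The stretches are RefSeq sequences of GRCm38.p6, read 5′ to 3′ on the strand of the gene and ending at or before the last base ahead of the start site, with the element in capitals. The Dusp5 stretch (chr19:53529033-53529102, plus strand) holds 2 adjoining CArG boxes, the element that serum response factor binds. The stretches of Maff (chr15:79347461-79347519, plus, ahead of 1 of its 3 listed starts) and Btg2 (chr1:134079284-134079351, minus) hold the cyclic AMP response element TGACGTCA. The Ier3 stretch (chr17:35821591-35821660, plus) holds a kappa B motif on the other strand, and the Btg1 stretch (chr10:96616945-96617000, plus) holds TATAAA.
Dusp5: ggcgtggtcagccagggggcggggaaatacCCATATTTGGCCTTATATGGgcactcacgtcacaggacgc
Maff: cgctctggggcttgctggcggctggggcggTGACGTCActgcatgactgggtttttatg
Btg2: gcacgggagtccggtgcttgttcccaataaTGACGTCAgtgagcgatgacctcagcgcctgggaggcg
Ier3: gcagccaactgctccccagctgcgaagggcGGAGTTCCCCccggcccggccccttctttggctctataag
Btg1: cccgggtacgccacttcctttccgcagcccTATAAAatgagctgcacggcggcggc

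Start windows, running from 250 bases before to 50 bases after a start, were available for 52 of the 68 genes, 63 windows in all, and both strands were searched. The CArG box was in 6 member windows (9.52%), which belonged to 3 genes, against 1.63% of 32851 windows of all genes. TGACGTCA was in 6.35% of member windows against 1.79%, and the kappa B motif in 15.9% against 8.46%. The GC box GGGCGG was in 66.7% against 35.7%, while TGANTCA, the AP-1 site, was in 3.17% against 7.81% and TATAAA in 7.94% against 13.6%. Of the 18 listed member genes with windows, the CArG box was in 1, TGACGTCA in 2 and the kappa B motif in 4. In these 18 genes GGGCGG was in 16, TATAAA in 3 and TGANTCA in 0. Several windows can belong to 1 gene, as 4 of the 6 CArG windows did to Egr2, whose starts lie close together, and GC boxes inside the printed stretches were left in lower case. The libraries measured RNA, so these stretches describe the genes and not the values that follow.

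**Figure D1:**
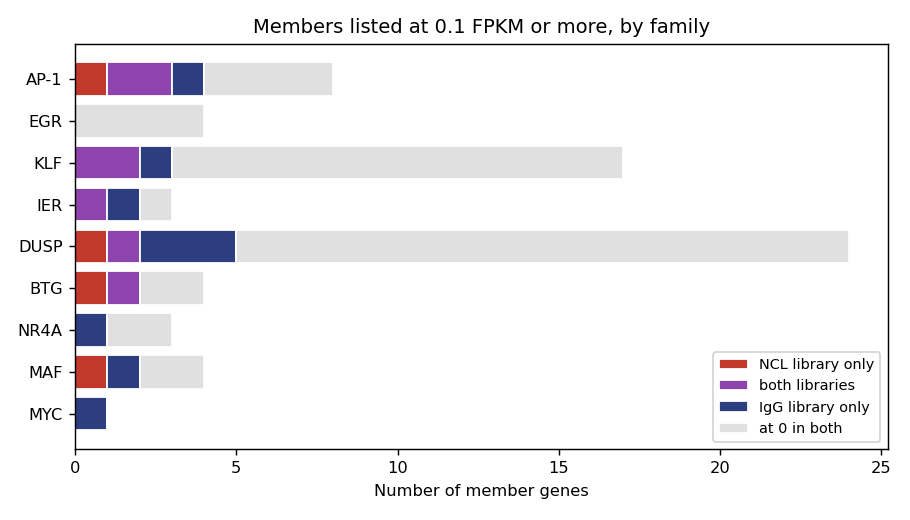
Number of member genes (horizontal axis) in each family, split by where they were listed at 0.1 FPKM or more: NCL library only, both libraries, IgG library only, or at 0 in both. The DUSP and KLF families are the largest and mostly at 0, and no EGR gene was listed.

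Members were listed more often than genes at large in both libraries. In the NCL library 11 of the 68 were listed (16.2%), against 7.23% of all symbols, and in the IgG library 16 (23.5%), against 8.40%. In either library 20 were listed (29.4%), against 13.4% of all symbols. Of these 20, 4 were in the NCL library only, 7 in both (2.25% of all symbols were in both) and 9 in the IgG library only. Of the 3200 symbols listed in either library, 1191 were in the NCL library only, 538 in both and 1471 in the IgG library only. All 20 members reached 1 FPKM and were compared. Differences of 2-fold or more toward the NCL library were found in 4 of them, against a background of 37.8% of 3194 genes compared. Those toward the IgG library were found in 14, against 56.7%. On the log2 scale with 1 FPKM added to both values, the median ratio was -3.35 over the 20 members and -1.27 over all genes compared. At a minimum of 10 FPKM the order turned, with -3.53 over 17 members and -3.70 over all genes. Over the 7 members in both libraries it was -1.26, against -1.19 over the 538 genes in both. Of these 7 members 5 were at least 2-fold lower in the NCL library, where 63.6% of the 538 genes were, and 0 were at least 2-fold higher, where 3.72% were. The most frequent FPKM ratio among low genes, that of equal reads in both libraries, was 0.393, so a gene with equal reads has the lower FPKM in the NCL library.

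The depth of these libraries sets what a member's value can carry. In the IgG library 94 genes had 1 row, at least 1 FPKM and a span of 1000 to 3000 bases. Of these, 12 lay on 1 curve of FPKM against span, within 0.5%, as unspliced genes with the same number of reads would. Ier2, an intronless member with a span of 1522 bases, was among these 12. In the NCL library 6 of 77 such genes lay on a curve of this kind, Junb among them. Each curve was the one that held the most genes, so lying on it is no separate check. Taken as 1 read, the curves put the fragment total behind the FPKM values at 23637 in the IgG and 57876 in the NCL library. Junb, also intronless, came to 5.00 reads in the IgG library on that scale, though it had not been used there. A transcript cannot be longer than its gene, so FPKM and span together also give a largest possible read number for every spliced member. That maximum was 1 read for 4 of the 11 member values in the NCL library and for 6 of the 16 in the IgG library. Those counts include the intronless Junb (NCL) and Ier2 (IgG). For these, 1 read was taken from the curves that they helped to define. The deposited FPKM values carry no molecular identifiers, so the intervals and limits given here cover counting error only.

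**Figure D2:**
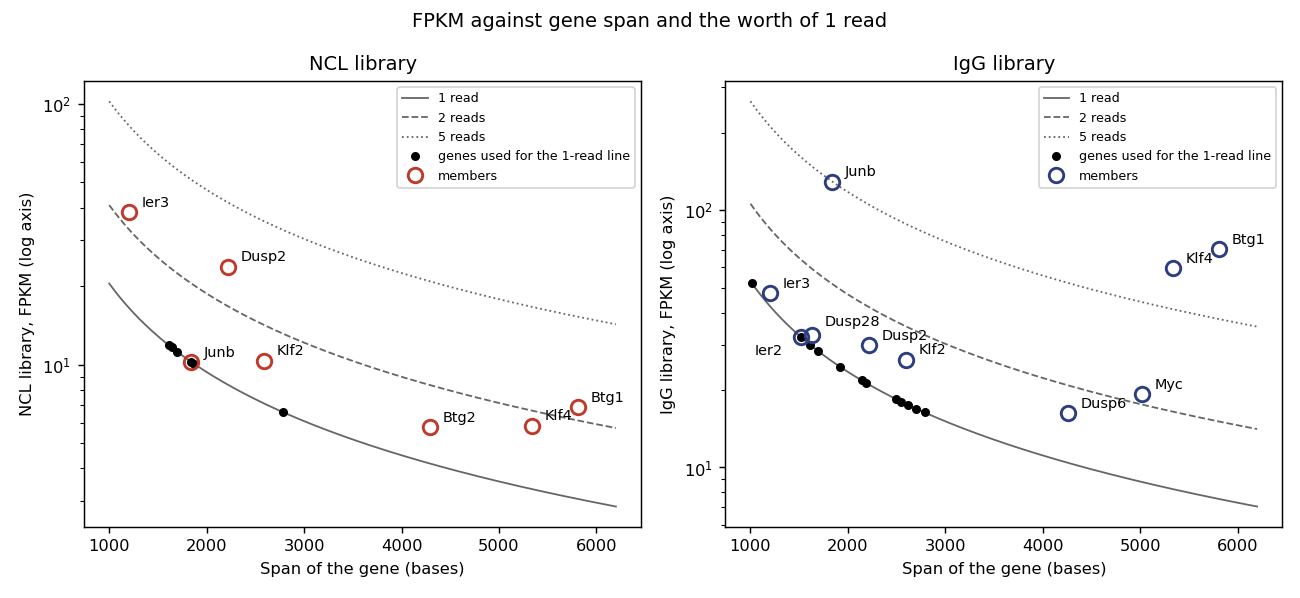
FPKM (log axis) against the span of the gene in bases, NCL library on the left and IgG library on the right; black points are the genes that define the 1-read curve, open circles are members with spans under 6200 bases, and broken curves mark 2 and 5 reads. Ier2 in the IgG library and Junb in the NCL library sit on the 1-read curves that they helped to define. Junb in the IgG library sits on the curve of 5 reads.

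Of the AP-1 group, Junb, Fosl2, Fosb and Atf3 were listed. Junb, a JUN protein that pairs with FOS partners, had 10.2 FPKM in the NCL library and 129 FPKM in the IgG library. It was the highest member of the set in the IgG library, where it ranked 123 among 2009 listed genes, and ranked 680 of 1729 in the NCL library. The FPKM ratio of 0.0793 matched 1 NCL read to 5 IgG reads, with an exact (Clopper-Pearson) 95% interval from 0.00166 to 0.703. Junb lies on chromosome 8 from 84976909 to 84978748. Fosl2, a FOS-related partner that lacks the strong activation domain of FOS, had 2.92 FPKM in the NCL library and 7.46 FPKM in the IgG library. This was the ratio of equal reads, and the span of Fosl2 allowed up to 3 reads in each library. The interval for 1 read in each ran from 0.00501 to 30.9.

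Fosb, a partner of JUN proteins, was at 0 in the NCL library and at 11.8 FPKM in the IgG library, where its span allowed at most 2 reads. Atf3, a stress-induced factor that limits cytokine transcription in LPS-treated macrophages, showed the opposite pattern, with 9.43 FPKM in the NCL library and 0 in the IgG library. Its gene spans 13038 bases of chromosome 1, which allowed up to 7 reads. Even at 7 reads, a count of 0 in the IgG library allows up to 10.3 FPKM there (the level of 3 reads), which is above the Atf3 level in the NCL library. Fos, Fosl1, Jun and Jund were at 0 in both libraries. For Jun, an intronless gene, 0 reads allows up to 17.1 FPKM in the NCL library and 42.5 FPKM in the IgG library.

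Egr1, Egr2, Egr3 and Egr4, zinc finger factors of the early wave, were also at 0 in both libraries. Nr4a2, an orphan nuclear receptor, was at 0 in the NCL library and at 29.9 FPKM in the IgG library, nearly all of it from 1 of its 2 transcript rows, while Nr4a1 and Nr4a3 were at 0. The span of Nr4a2 allowed up to 12 reads. Myc, which drives growth and ribosome production genes, was at 0 in the NCL library and at 19.2 FPKM in the IgG library, where its span allowed at most 2 reads. If it was 2 reads, 0 in the NCL library allows up to 11.4 FPKM, and if it was 1 read, up to 22.7 FPKM.

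The KLF genes encode zinc finger factors that bind GC-rich elements, and 3 of the 17 were listed. Klf4, which is induced in activated macrophages and is also a factor of gut and skin epithelium, had 5.84 FPKM in the NCL library and 59.5 FPKM in the IgG library. Its span allowed at most 1 read in the NCL library, so the matched ratio means 1 NCL read and 4 IgG reads. The FPKM ratio was 0.0983, with an interval from 0.002 to 0.994. Klf2, a quiescence factor of myeloid and endothelial cells, had 10.4 FPKM in the NCL library and 26.2 FPKM in the IgG library. Its span of 2593 bases held it to 1 read in each. Klf3, a repressor, was at 0 in the NCL library and at 20.0 FPKM in the IgG library, where its long span allowed up to 13 reads, and the other 14 KLF genes were at 0 in both.

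**Figure D3:**
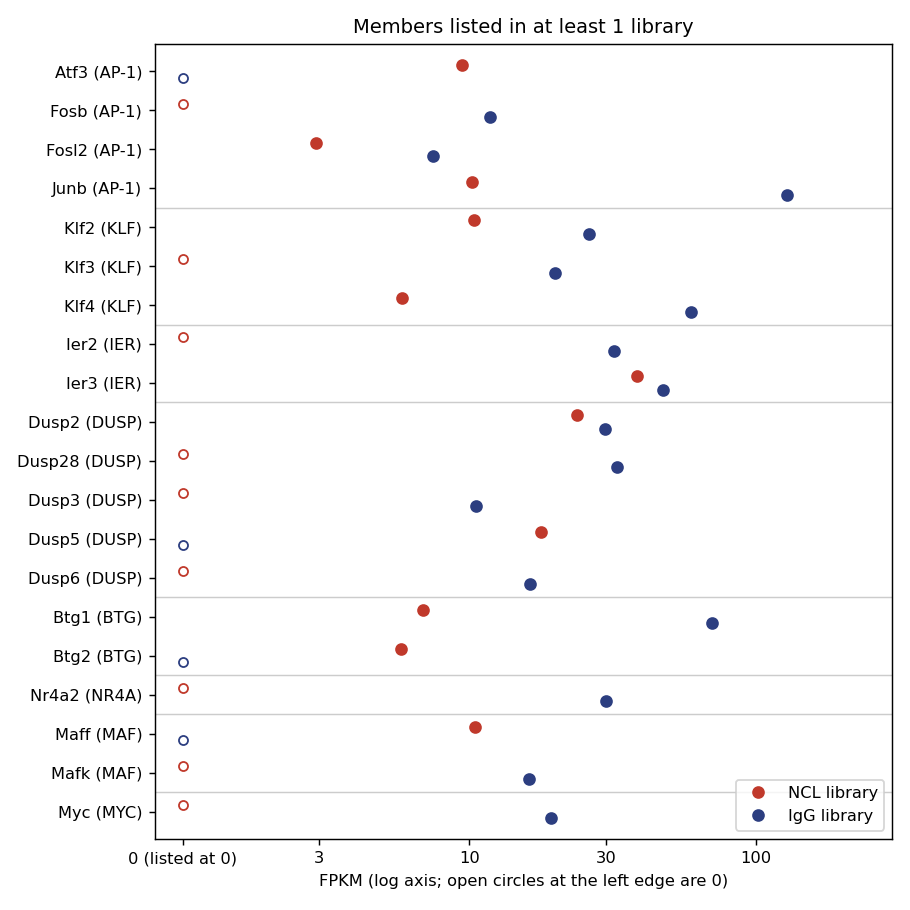
FPKM (log axis) of the 20 listed members in the NCL library (red) and the IgG library (blue), grouped by family; open circles at the left edge are values listed at 0. In all 7 genes with both values the NCL value as deposited is the lower one, by the widest margins for Junb, Klf4 and Btg1; centred on all genes compared, Ier3, Dusp2, Klf2 and Fosl2 turn to the other side.

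The IER and DUSP genes held the members nearest to equal FPKM. Ier3, an early gene that affects survival and NF-kappa B signalling, had 38.4 FPKM in the NCL library and 47.6 FPKM in the IgG library. It was the highest member in the NCL library, at rank 161. Dusp2, a nuclear phosphatase of immune cells that acts on MAP kinases, had 23.7 FPKM in the NCL library and 29.8 FPKM in the IgG library. These values gave log2 ratios of -0.30 for Ier3 and -0.32 for Dusp2 as deposited, which turned to 0.96 and 0.95 when centred on all genes compared. Both genes matched 2 NCL reads to 1 IgG read, and their spans allowed at most 2 reads and 1 read in those libraries. Their FPKM ratios were 0.806 and 0.795, and the interval for 2 reads to 1 ran from 0.041 to 46.4. Ier2 was at 0 in the NCL library and at 32.0 FPKM in the IgG library, 1 read on the 1-read curve that it helped to define. For Ier2, 0 in the NCL library allows up to 37.8 FPKM, more than its IgG level, and Ier5 was at 0 in both.

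Of 24 DUSP genes 5 were listed. Dusp5, a nuclear phosphatase of ERK, had 17.8 FPKM in the NCL library and 0 in the IgG library. It had the highest log2 ratio of the set, 4.24, and its span of 12665 bases allowed up to 12 reads. At 12 reads, 0 in the IgG library would allow up to 11.3 FPKM there, and at 1 read up to 136 FPKM, so the comparison depends on a read number that was not recovered. Dusp6, a cytoplasmic phosphatase of ERK, was at 0 in the NCL library and at 16.3 FPKM in the IgG library, 1 read by its span. Dusp28, an atypical member of the family, was at 0 in the NCL library and at 32.8 FPKM in the IgG library, also 1 read. Dusp3, a small phosphatase that acts on ERK and JNK, was at 0 in the NCL library and at 10.6 FPKM in the IgG library, with up to 3 reads. Dusp1, the early phosphatase that restrains p38 in LPS-treated macrophages, and the 18 remaining DUSP genes were at 0 in both.

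The BTG genes encode antiproliferative proteins that recruit the deadenylation machinery to messenger RNA. Btg1 had 6.88 FPKM in the NCL library and 70.3 FPKM in the IgG library, a ratio of 0.0978 that matched 1 NCL read to 4 IgG reads in lowest terms. Its span allowed 2 NCL reads, so 2 to 8 reads fits as well, and the interval for 1 to 4 was again 0.002 to 0.994. Btg2 went the other way, with 5.76 FPKM in the NCL library, 1 read by its span, and 0 in the IgG library, which allows up to 44.0 FPKM there. Of the small MAF genes, which encode partners of NRF and BACH factors, Maff and Mafk were listed. Maff had 10.5 FPKM in the NCL library and 0 in the IgG library, whereas Mafk was at 0 in the NCL library and at 16.1 FPKM in the IgG library. Even at the 7 reads that the Maff span allows, 0 in the IgG library allows up to 11.4 FPKM there, above its NCL level. For Mafk, 0 in the NCL library allows up to 4.75 FPKM if the IgG value was 4 reads, its maximum, and up to 19.0 FPKM if it was 1 read. Btg3, Btg4 and Mafg were at 0 in both.

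By read number, the 7 members in both libraries fell into 3 groups. Klf2 and Fosl2 were at equal reads, as were 43.6% of the 369 genes with 1 row and a value in both libraries. Ier3 and Dusp2 had 2 NCL reads per IgG read, and 31.2% of the 369 genes had at least that many. Junb, Klf4 and Btg1 had 4 or more IgG reads per NCL read, a limit set after their values were seen, which held for 1.63% of the 369 genes. That share is 6 genes, of which these members made up 3, and the other 3, chosen after their values were seen, were Ddx3x, Dpcr1 and Gm6682. With the limit taken from the members themselves, the share is no separate check. Genes at 0 in the NCL library have no such ratio, so the 1471 symbols in the IgG library only were outside the 369. The intervals of Junb, Klf4 and Btg1 end below an FPKM ratio of 1, with 0.994 as the upper end for both Klf4 and Btg1, but all 3 include the ratio of equal reads, 0.393. Centred on all genes compared, their log2 ratios were still negative, at -2.27 for Junb, -1.88 for Klf4 and -1.91 for Btg1. These 3 genes summed to 22.9 FPKM in the NCL library and 259 FPKM in the IgG library.

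**Figure D4:**
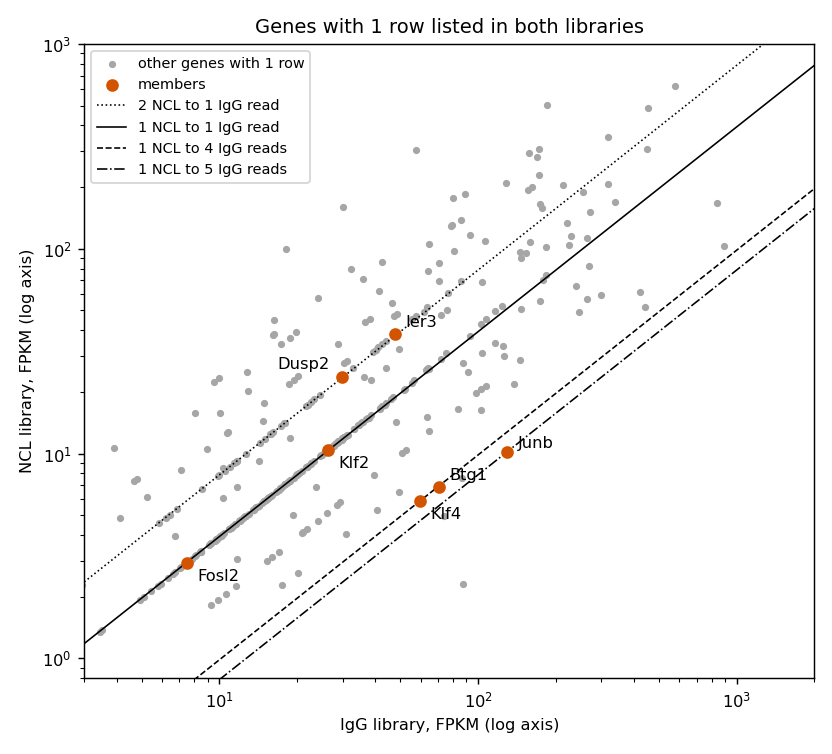
NCL FPKM against IgG FPKM (both log axes) for the 369 genes with 1 row listed in both libraries, with lines at whole-number read ratios; members are orange. Klf2 and Fosl2 lie on the line of equal reads, Ier3 and Dusp2 on that of 2 NCL reads to 1 IgG read, Btg1 and Klf4 on that of 1 to 4, and Junb on that of 1 to 5.

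Markers of other cells differed between the libraries beside these values. All 7 gastric and digestive markers were at 0 in the NCL library and summed to 19817 FPKM in the IgG library, and all 6 epithelial markers were at 0 in the NCL library, while 5 of them were listed in the IgG library and summed to 448 FPKM. Both fibroblast markers were at 0 in the NCL library and summed to 34.6 FPKM in the IgG library. Of the 3 T cell markers only Lck reached 1 FPKM, with 8.92 FPKM in the NCL library and 0 in the IgG library. Neither of the 2 B cell markers reached 1 FPKM. Macrophage markers summed to 749.7 FPKM in the NCL library and 757 FPKM in the IgG library, with 11 of 14 listed; Emr1, Ptprc and Fcgr3 were at 0 in both. Single markers went both ways, 5 at least 2-fold higher in the NCL library and 4 at least 2-fold lower. Lyz2 had 199.6 FPKM in the NCL library and 0 in the IgG library, whereas Cd68 had 16.2 FPKM in the NCL library and 138 FPKM in the IgG library. The part of these other transcripts in the IgG values of Klf4, Junb or any other member was not tested. Both libraries were immunoprecipitates from the same macrophage line, so these sums measure neither numbers of cells nor RNA per cell. Where the transcripts of other cells came from was not tested.

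Genes that carry the signal to the immediate early genes were looked at beside the members. Of 32 genes for the kinases, receptors and factors upstream, 9 (28.1%) were compared, against 13.4% of all symbols. Of these, 2 stood 2-fold or more toward the NCL library and 7 toward the IgG library, against 37.8% and 56.7% of all genes compared. The median log2 ratio was -4.49, against -1.27 over all genes compared. Most of these values stand against 0, since 2 genes were in the NCL library only and 5 in the IgG library only. Read numbers were not worked out for these genes. Elk4, a partner of serum response factor, had 4.78 FPKM in the NCL library and 0 in the IgG library, and Tlr4, the LPS receptor, had 4.55 FPKM in the NCL library and 0 in the IgG library. Mapk3, which encodes ERK1, was at 0 in the NCL library and at 53.8 FPKM in the IgG library. Mapkapk3, a kinase activated by p38, was at 0 in the NCL library and at 48.5 FPKM in the IgG library. Of the 9, Creb1 and Map2k1 were in both libraries: Creb1 had 2.01 FPKM in NCL and 5.24 FPKM in IgG, and Map2k1 had 7.63 FPKM in NCL and 19.3 FPKM in IgG. Of 30 further early genes and RNA-decay factors 4 (13.3%) were compared, close to the share among all symbols (13.4%). Cebpb, an inflammatory C/EBP factor, had 25.6 FPKM in the NCL library and 0 in the IgG library. Zfp36l2, which destabilises AU-rich messenger RNAs, Per1 and Id2 were at 0 in the NCL library and at 12.7, 9.49 and 39.5 FPKM in the IgG library.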

How the data were processed

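RNA from 1 nucleolin (NCL) and 1 IgG immunoprecipitation was compared. The deposited table gives FPKM per transcript for each library, per the file headers, and no library was pooled with another there. FastQC 0.10.0, Trimmomatic 0.32 and the build mm10 were used, per the submitters' processing notes; for the aligner, quantifier and strand use: not given in the sources used here, so reads shared by overlapping genes or close paralogs are uncertain. Rows without a symbol (56) were left out and the other rows summed per symbol. Genes at 1 FPKM or more in either library were compared as log2((NCL + 1)/(IgG + 1)), counting 2-fold differences; a gene under 0.1 FPKM is called at 0. Every listed member is named, and 1 member is not reported here by name.

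The ratio of equal reads was the most frequent ratio among 246 genes with 1 row under 60 FPKM (IgG) and 30 FPKM (NCL). Ratios were matched to the smallest pair of at most 8 reads within 0.05 on the log2 scale, and 98.8% of the 246 matched. The 1-read curves, FPKM = C/(span - f), were devised after seeing the values; f was 156 bases (NCL) and 201 bases (IgG). Spans, positions and start windows come from RefSeq tables of GRCm38.p6, the assembly mm10 stands for; all 68 members matched. A count of 0 is taken to allow 3 reads. On simulated data the ratio of equal reads and the read pairs had to be recovered, whereas the curves and read limits had no pass mark. Members, lists and rules were chosen with earlier results of these data known. Tools were scipy 1.17.1, numpy 2.4.6 and pandas 2.3.3 under Python 3.11.15.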

Additional observations from a re-analysis of the deposited data

How the results depend on the processing

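With the other pseudocounts (0.1 and 5 FPKM), no minimum, the highest row per symbol, centring, or 1 read made worth the same in both libraries, members at least 2-fold higher in the NCL library numbered 4 or 5 (Ier3 joined with 1 read made equal) and members at least 2-fold lower 12 to 14. At a minimum of 10 FPKM, which drops genes at 1 NCL read sooner than genes at 1 IgG read, 2 of 17 members were higher and 13 lower. The median log2 ratio of the members ran from -3.53 to -1.91 over these settings, while that of all genes compared was -1.27 as deposited, -0.0082 with 1 read made equal and -3.70 at the minimum of 10 FPKM, where it lay below the members' -3.53. Centring turned the log2 ratios of Fosl2 to 0.156 and of Klf2 to 0.0109, and equal reads turned that of Klf2 to 0.0107; both genes had equal reads. The ratios of Ier3 and Dusp2, within 2-fold as deposited, were 0.96 and 0.95 after centring. Listing at 1 FPKM or above 0 left 11 members listed in the NCL and 16 in the IgG library, and a tolerance of 0.02 on the log2 scale matched 6 of the 7 members in both to a read pair. No paired analysis was possible because each group has 1 library, and for the same reason no library could be left out. Depth limits many of the values to a few reads, and read pairs are given in lowest terms.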

Other observations

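Among genes for partners or relatives of AP-1 and MYC proteins, 3 of 21 (14.3%) were compared, close to the share among all symbols (13.4%). All 3 stood in the NCL library and were at 0 in the IgG library, and their read numbers were not worked out. Atf4, the factor of the integrated stress response, had 27.1 FPKM in the NCL library. Jdp2, a repressor that pairs with JUN proteins, had 12.4 FPKM, and Atf6, a sensor of unfolded protein in the endoplasmic reticulum, had 2.27 FPKM. Against this, 37.8% of all genes compared were at least 2-fold higher in the NCL library. The MYC partner genes Max, Mnt and Mxd1 were not among the genes compared.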
